A study of Homo sapiens with 6 samples.

Results

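The RBM genes, a group named for the RNA-binding motif of their proteins, were compared between control and SLU7 siRNA in PLC/PRF/5 cells. PLC/PRF/5 is an established human hepatocellular carcinoma line. The members were the rows of the expression table with a single gene symbol, in its current form, that begins with RBM and a further letter or digit, and each gene was represented by its brightest row. This gave 42 genes (from 46 rows) of the 15949 genes and 18708 rows in the table. Of the 42, 41 encode proteins, and RBM12B-AS1, an antisense RNA beside RBM12B, entered by its name. The RefSeq table lists 53 protein-coding RBM genes, and the other 12 were not analysed here: RBM12, RBM20, RBM27, RBMXL1, 2 read-through genes and 6 RBMY genes. RBFOX2, ESRP1 and SCAF8 carried RBM symbols on the array but have other symbols now, and were not members.

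The study knocked down SLU7 and measured total RNA 48 h after transfection with Lipofectamine RNAiMAX, on Human Exon 1.0 ST arrays of Affymetrix. The control group was 3 arrays of cells given the irrelevant siRNA siGL2 (numbered 1 to 3 in the descriptions), and the knockdown group was 3 arrays of cells given siSLU7, so both groups were transfected cells of the same line. All rows are log2 expression values, 1 per transcript cluster, which is the set of probe sets that covers a gene. Separate cultures are not named in the labels, so the p-values measure the spread between these arrays only, and that spread may be technical. Each value sums up many exons, so the use of single exons, which is what many RBM proteins control, cannot be read from these values.

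The RNA recognition motif is the commonest RNA-binding domain of animal cells, and most RBM proteins carry at least a single copy. The name is a label of this domain and not of a shared job. Some RBM proteins are parts of the spliceosome, the machine that removes introns; others choose between alternative exons, mark transcripts with N6-methyladenosine (m6A), hand RNA to the nuclear exosome, build ribosomes or bind messengers in stressed cells. SLU7, the target of the siRNA, acts in the second catalytic step of splicing, where the 2 exons are joined. The comparison asks how the messenger levels of this group stood when SLU7 was reduced.

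SLU7 read 7.89, 7.01 and 7.24 log2 units in control replicates 1 to 3 and 5.84, 5.58 and 6.21 in SLU7 replicates 1 to 3. It was lower in every knockdown array, by 1.51 ± 0.31 (SE) log2 units, with a limma adjusted p of 0.078 over all rows. The first principal component of the arrays, with 36.6% of the variance, did not separate the groups but set 2 arrays apart: control replicate 2 and SLU7 replicate 1. Array medians ran from 6.61 to 6.63 log2 units. Among 8 hepatocyte markers, TF, APOA1, FGB and APOB lay between 9.24 and 12.24 in both group means, TTR and AFP lay between 5.21 and 6.01, and ALB and SERPINA1 were dim. ALB had means of 3.87 with control siRNA and 3.07 with SLU7 siRNA. A row is called dim here where its mean over the 6 arrays was under 4.92 log2 units, the lower quartile of all rows.

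No RBM gene passed an adjusted p of 0.05 in the limma test over all rows, against 0.433% of all rows (81) that did. Without any 1 of the 6 arrays no row of the table passed, and over the other settings the number of rows called ran from 0 to 783. The smallest adjusted p in the group was that of RBM39, at 0.0568. At an unadjusted limma p under 0.05, 15 of the 42 genes (35.7%) were higher after SLU7 siRNA, where 6.55% of all rows were, and 1 (2.38%) was lower, where 6.54% of all rows were. The 15 were RBM39, RBM41, RBM4B, RBM26, RBM4, RBM22, RBM15B, RBM18, RBM5, RBM33, RBM14, RBM48, RBM12B, RBM25 and RBM24, and the lower gene was RBM8A. The arrays of the groups did not overlap for 15 genes that were higher (35.7%, with 9.64% of all rows) and for 1 that was lower, RBM3 (2.38%, with 9.21% of all rows). Both descriptions held for 12 of the higher genes. RBM24, RBM25 and RBM48 had the p but overlapped, and RBM15, RBM19 and RBMX2 lay apart without the p.

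The median log2 difference over the 42 genes was 0.44, a 1.36-fold higher level, and 29 genes (69.0%) lay above 0. Over all rows the median was 0.00427, with 50.5% above 0. Differences in the group ran from -0.97 for RBM11 to 1.89 for RBM48, and 9 genes were more than 1 log2 unit higher while none was more than 1 log2 unit lower. Without RBM12B-AS1 the median was 0.42 over 41 genes, of which 28 were above 0. All 16 genes with a small unadjusted p were among the 32 that were not dim. An exact permutation test of any single gene could not go below p = 0.1 with 3 arrays against 3.

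**Figure D1:**
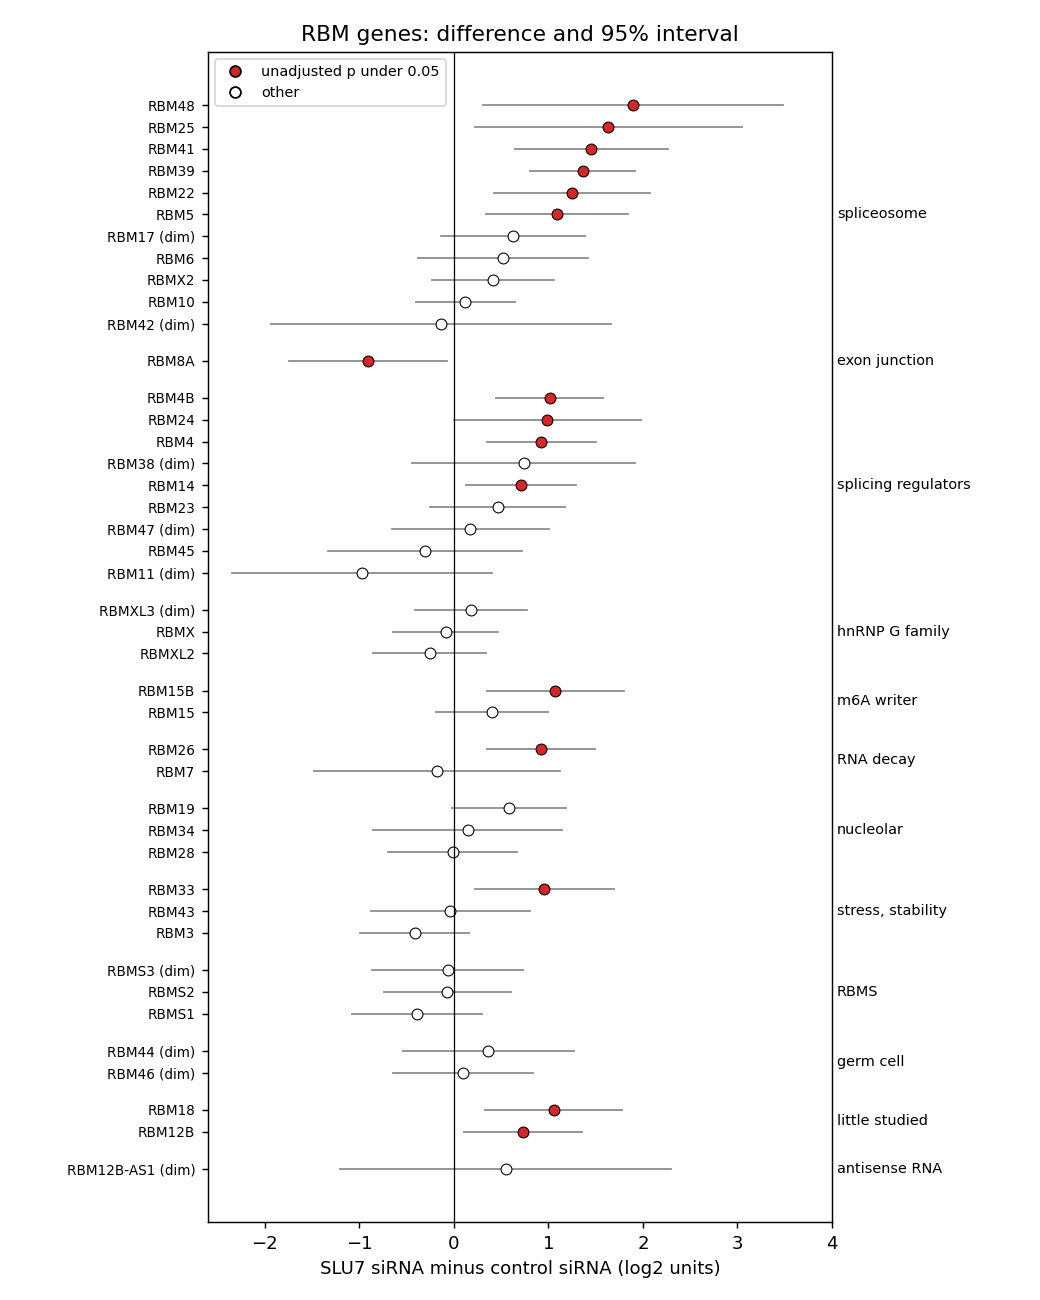
Log2 difference between SLU7 siRNA and control siRNA (x axis, log2 units) for the 42 RBM genes, grouped by role, with 95% intervals from the limma fit that are not adjusted for the number of genes. Filled points mark the 16 genes with an unadjusted p under 0.05, of which RBM8A alone lies to the left of 0.

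The arrays of a group were not alike in how the RBM genes stood. Each array's median deviation of the 42 genes from their own means over the 6 arrays was -0.02, -0.64 and -0.12 in control replicates 1 to 3 and 0.03, 0.23 and 0.36 in SLU7 replicates 1 to 3. By this measure every knockdown array was above every control array, but SLU7 replicate 1 was only just above control replicate 1. The median level of the same genes did not order the arrays by group. It was 7.61, 6.74 and 7.35 in control replicates 1 to 3 and 7.05, 7.42 and 7.55 in SLU7 replicates 1 to 3. Control replicate 2 was the lowest, with 9 of 42 genes above their own mean. The 2 arrays that stand apart had lower RBM values than the other 4 in 32 of 42 genes, by a median of 0.34 log2 units, while over all rows they were 0.10 higher. The part of that split in the comparison was measured by taking the sets of arrays separately: the median RBM difference was 0.65 within the pair (33 of 42 above 0) and 0.43 within the other 4 arrays (30 of 42 above 0).

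**Figure D2:**
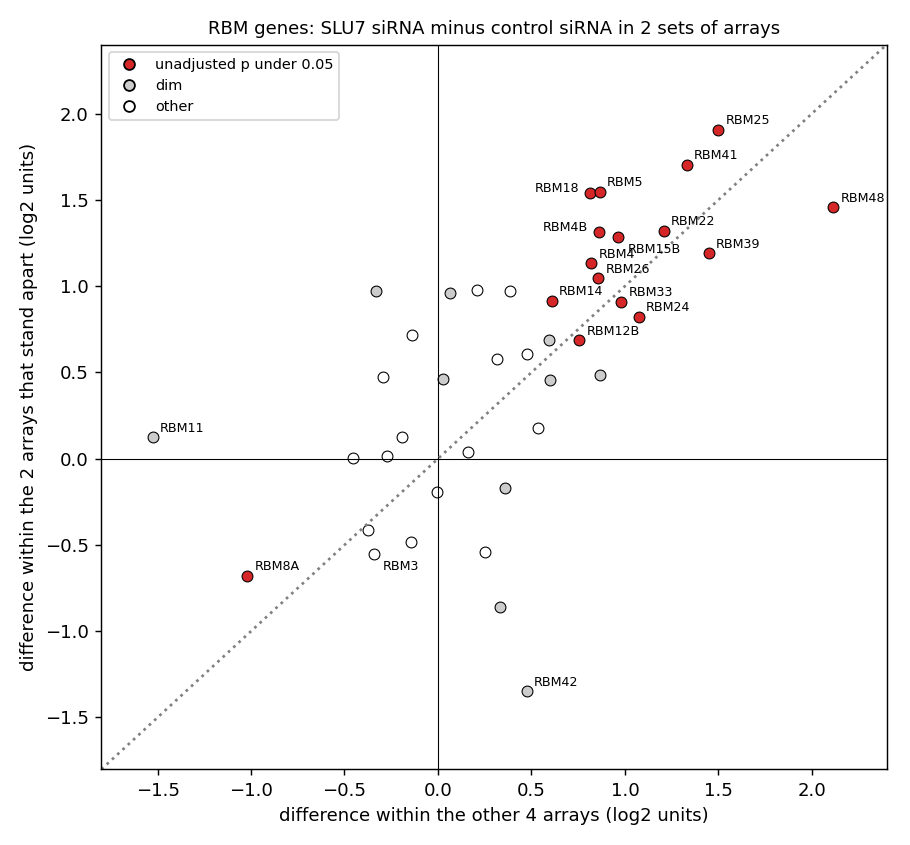
Difference between SLU7 and control siRNA for each RBM gene within the 2 arrays that stand apart (y axis, SLU7 replicate 1 minus control replicate 2, single arrays with no error) and within the other 4 arrays (x axis), in log2 units, with a dotted line of equality. The 15 higher genes, from 0.61 for RBM14 to 2.11 for RBM48 on the x axis, are positive on both axes, which for the 12 whose groups do not overlap is fixed by their having been chosen on these same 6 arrays; RBM11 and RBM42 are among the genes whose sign differs between the sets.

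The 5 largest differences were those of spliceosome proteins. Of 11 genes of this role, 10 were above 0, where 50.5% of all rows were, with a median of 1.09 log2 units. At an unadjusted limma p under 0.05, 6 were higher, where 6.55% of all rows were, and none passed over all rows. RBM39, also called CAPERalpha, is a relative of the splicing factor U2AF2 and works in 3′ splice site choice and as a transcriptional coactivator. It read 8.77, 8.60 and 8.62 log2 units in the control arrays and 9.80, 10.13 and 10.15 in the knockdown arrays. The groups were more than 1 log2 unit apart and each was tight. The difference of 1.36 ± 0.24 (SE) log2 units is a 2.57-fold higher level (95% interval 1.75 to 3.77), with a limma adjusted p of 0.0568. Over the 15 alternative settings that adjusted p ran from 0.0121 to 0.229.

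RBM23 is the closest relative of RBM39. It read 5.42, 4.50 and 5.13 with control siRNA and 5.48, 5.77 and 5.20 with SLU7 siRNA. The groups overlapped, and the difference of 0.46 ± 0.31 (SE) was 0.21 without control replicate 2 (adjusted p of 0.623 with all arrays in limma).

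RBM22 lies in the catalytic core of the spliceosome, where it contacts the U6 small nuclear RNA, and remains there through both steps. It read 8.27, 7.69 and 8.81 log2 units in the control arrays and 9.01, 9.66 and 9.84 in the knockdown arrays. All knockdown values were above all control values, with a narrow gap between control replicate 3 and SLU7 replicate 1. The difference was 1.25 ± 0.36 (SE), or 2.37-fold higher (95% interval 1.34 to 4.20), with a limma adjusted p of 0.173. The RefSeq table names 10 pseudogenes after RBM22, and how far its probes separate them was not tested. Of its neighbours in the Prp19-related complexes and of the RES complex, 9 of 10 measured genes were above 0, with a median of 0.63. Of these 10, 5 were higher at an unadjusted limma p under 0.05, where 6.55% of all rows were, and none passed over all rows. BUD31, a small zinc-binding protein of the same complexes, read 9.68, 8.39 and 9.29 with control siRNA and 10.50, 10.83 and 10.92 with SLU7 siRNA. It was 1.63 ± 0.36 (SE) log2 units higher, with a limma adjusted p of 0.0889. CWC15 was 1.00 higher and BUD13 0.68 higher, both without overlap. RBMX2, the third RES subunit beside BUD13, was 0.42 higher, and its knockdown arrays, between 6.12 and 6.17, lay just above the highest control array at 5.996.

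RBM5, RBM6 and RBM10 share an architecture and regulate alternative exons, among them those of the death receptor gene FAS; RBM5 and RBM6 are neighbours on chromosome 3. RBM5 read 8.33, 7.35 and 8.33 log2 units in the control arrays and 8.90, 9.07 and 9.32 in the knockdown arrays. It was higher in each knockdown array, by 1.09 ± 0.33 (SE) or 2.13-fold, with a limma adjusted p of 0.189. RBM10, its closest relative, read 8.15, 8.26 and 8.34 with control siRNA and 8.30, 8.39 and 8.41 with SLU7 siRNA. Its groups overlapped and differed by 0.12 (95% interval -0.40 to 0.65). The brighter row of RBM6 was 0.52 higher (95% interval -0.38 to 1.42), and the other row, which was dim, differed by 0.01. The difference between the responses of RBM5 and RBM10 was not tested.

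RBM25, which promotes use of weak 5′ splice sites, varied widely. It read 5.44, 3.12 and 4.39 log2 units in the control arrays and 5.02, 6.10 and 6.73 in the knockdown arrays. SLU7 replicate 1 lay below control replicate 1, so the groups overlapped, and the mean difference was 1.63 ± 0.62 (SE) with a limma adjusted p of 0.302. Without control replicate 2 it was 1.03. RBM17 (SPF45), a 3′ splice site factor, was dim in all arrays, from 1.48 to 2.83, so that its difference of 0.62 is uncertain. RBM42, a protein of the tri-snRNP, was dim by its mean and scattered, with 2.35 in SLU7 replicate 1 and 3.69 to 5.86 elsewhere. Its difference of -0.13 is also uncertain. Genes around branch-site recognition, such as SF1, SF3B1 and CHERP, had a median of 0.11 over 9 measured members, none of which had an unadjusted p under 0.05 in limma.

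RBM41 and RBM48 belong to the minor spliceosome, which removes the rare U12-type introns: RBM48 works with ARMC7, and RBM41 resembles the U11/U12 protein RNPC3. RBM41 read 7.17, 6.44 and 7.56 log2 units with control siRNA and 8.14, 8.92 and 8.47 with SLU7 siRNA. Every knockdown array was above every control array. The difference was 1.45 ± 0.35 (SE), or 2.74-fold (95% interval 1.57 to 4.80), with a limma adjusted p of 0.118. RBM48 read 5.72, 3.54 and 4.28 with control siRNA and 5.00, 6.94 and 7.29 with SLU7 siRNA. Its difference, the largest of the group at 1.89 ± 0.70 (SE), had groups that overlapped at control replicate 1 and SLU7 replicate 1, and a limma adjusted p of 0.287. Leaving out single arrays moved it between 1.41 and 2.60.

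Other proteins of the minor spliceosome had a median of 0.63 over 9 measured genes, 7 of them above 0. Of the 9, 3 were higher at an unadjusted limma p under 0.05, where 6.55% of all rows were, and none passed over all rows. TXNL4B, a relative of a U5 protein, read 7.23, 7.55 and 7.36 in the control arrays and 8.47, 8.35 and 8.32 in the knockdown arrays. It was 1.00 ± 0.24 (SE) higher, with a limma adjusted p of 0.11. SNRNP25 was 0.82, SNRNP48 0.70 and ARMC7 0.63 higher, all without overlap. ZMAT5 differed by -0.41, with all knockdown arrays below all control arrays. Of the 9, 5 were higher without overlap, where 9.64% of all rows were, and 1 was lower, where 9.21% were.

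RBM8A (Y14) was the only member with a small unadjusted p and a lower level. With MAGOH it forms a core dimer of the exon junction complex, which marks joined exons and guides later export and decay. It read 7.94, 6.79 and 7.63 log2 units with control siRNA and 6.11, 6.58 and 6.95 with SLU7 siRNA. SLU7 replicate 3 was above control replicate 2, so the groups overlapped. The difference was -0.91 ± 0.37 (SE), a 1.87-fold lower level (95% interval 1.05 to 3.34), with a limma adjusted p of 0.339. Most of its partners stood on the other side of 0: of 8 measured genes of the complex and its periphery, 6 were above 0 with a median of 0.81. Of the 8, 5 were higher at an unadjusted limma p under 0.05, where 6.55% of all rows were, and none passed over all rows. EIF4A3, the helicase that clamps the complex on RNA, read 9.88, 9.87 and 10.07 with control siRNA and 10.77, 10.74 and 10.85 with SLU7 siRNA, a difference of 0.85 ± 0.23 (SE; limma adjusted p of 0.153). MAGOH was 0.96 and its near copy MAGOHB 0.82 higher, and the splicing activators RNPS1 and SAP18 were 0.80 and 0.82 higher. In each of these 5 genes the groups did not overlap, while 9.64% of all rows were higher without overlap. CASC3, the cytoplasmic core subunit, differed by -0.16. The difference between RBM8A and its partners was not tested.

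**Figure D3:**
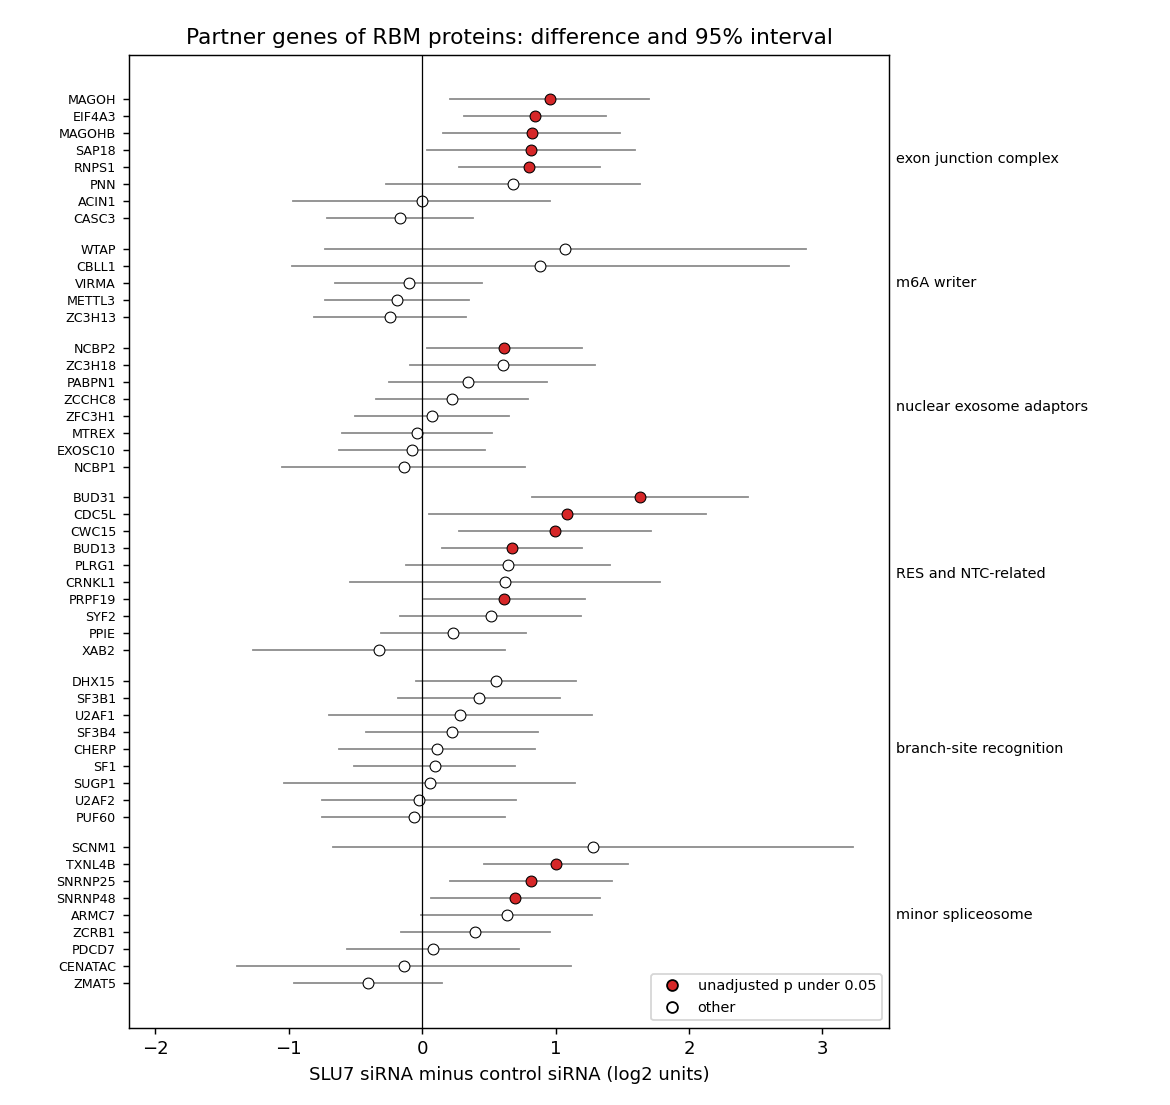
Log2 difference between SLU7 siRNA and control siRNA (x axis, log2 units) with 95% intervals from the limma fit, not adjusted for the number of genes, for the measured partners of RBM proteins, by complex. Filled points mark an unadjusted p under 0.05: 5 of 8 in the exon junction complex, 5 of 10 in the RES and Prp19-related (NTC) group, 3 of 9 in the minor spliceosome, 1 of 8 among nuclear exosome adaptors, and none in the m6A writer (5 genes) or branch-site group (9 genes). All filled points lie above 0, and 6.55% of all rows were higher at that limma p.

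Among the other splicing regulators, 7 of 9 measured genes were above 0 with a median of 0.71, and none passed over all rows. The 9 were RBM4, RBM4B, RBM11, RBM14, RBM23, RBM24, RBM38, RBM45 and RBM47, while RBM5, RBM6 and RBM10 were counted with the spliceosome. Of the 9, 4 were higher at an unadjusted limma p under 0.05, where 6.55% of all rows were. RBM4 and RBM4B are closely similar neighbours on chromosome 11 whose gene bodies overlap in the RefSeq table, and RBM14 lies beside RBM4. How far the probes tell RBM4 from RBM4B was not tested, since probe sequences were not used here, and their values are uncertain for that reason. RBM4, which regulates exon choice and translation, read 10.54, 10.31 and 10.86 log2 units in the control arrays and 11.45, 11.45 and 11.59 in the knockdown arrays. RBM4B read 9.48, 9.01 and 9.44 in the control arrays and 10.32, 10.26 and 10.39 in the knockdown arrays. In both genes the knockdown arrays were close together and above all control arrays. RBM4 was 0.92 ± 0.25 (SE) higher, or 1.90-fold (95% interval 1.27 to 2.83, limma adjusted p of 0.153), and RBM4B 1.01 ± 0.25 (SE), or 2.02-fold (95% interval 1.36 to 2.99, limma adjusted p of 0.122).

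The promoters of RBM4 and RBM4B are shown because both copies were higher, with those of RBM22, the spliceosome core protein described above, and of RBM8A, the gene that stood opposite. Each is the 250 bases before the RefSeq start on GRCh38.p14, read 5′ to 3′ on the gene's strand. Capitals mark matches on either strand, which may overlap, to the GC box GGGCGG, the CCAAT box CCAAT, the ETS site CCGGAAG, the NRF1 site GCATGCG, the cyclic AMP element TGACGTCA and the TATA box TATAAA.
RBM4 (chr11:66638453-66638702, plus strand): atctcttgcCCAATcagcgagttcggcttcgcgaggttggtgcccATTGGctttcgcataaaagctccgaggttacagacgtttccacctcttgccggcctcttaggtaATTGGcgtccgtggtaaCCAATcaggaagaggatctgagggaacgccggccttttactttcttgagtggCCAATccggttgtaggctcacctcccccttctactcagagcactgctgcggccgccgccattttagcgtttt
RBM4B (chr11:66677888-66678137, minus strand): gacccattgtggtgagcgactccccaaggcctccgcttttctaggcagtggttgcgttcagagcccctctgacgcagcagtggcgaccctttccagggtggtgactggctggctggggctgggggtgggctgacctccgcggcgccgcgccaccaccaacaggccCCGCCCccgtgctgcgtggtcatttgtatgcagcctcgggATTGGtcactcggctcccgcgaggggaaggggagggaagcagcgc
RBM22 (chr5:150701063-150701312, minus strand): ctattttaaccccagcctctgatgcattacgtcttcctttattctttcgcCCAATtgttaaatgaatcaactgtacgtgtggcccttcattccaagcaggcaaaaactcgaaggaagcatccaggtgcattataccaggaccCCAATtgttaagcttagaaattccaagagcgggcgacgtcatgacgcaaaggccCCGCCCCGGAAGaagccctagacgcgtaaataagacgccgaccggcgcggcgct
RBM8A (chr1:145927485-145927734, minus strand): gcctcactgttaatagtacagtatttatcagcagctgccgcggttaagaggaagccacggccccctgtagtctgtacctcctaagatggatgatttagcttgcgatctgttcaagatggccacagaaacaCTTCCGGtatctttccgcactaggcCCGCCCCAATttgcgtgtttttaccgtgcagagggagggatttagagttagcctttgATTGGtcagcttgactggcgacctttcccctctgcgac
The RBM4 window held 5 CCAAT matches and no other match, and that of RBM4B held 1 CCAAT match and 1 GC box. RBM22 and RBM8A each held 2 CCAAT matches, 1 GC box and 1 ETS site. None of the 4 windows held the TATA box searched for.

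Promoters in RefSeq matched 37 of the 42 genes, with 42 windows of 250 bases since some genes have several starts, and 12 of the 15 higher genes, with 13 windows. CCAAT stood in 20 of these 42 windows (47.6%) and in 32.0% of all 35116 windows of this length. The GC box stood in 23 (54.8%) against 42.6% of all windows, the ETS site in 7 (16.7%) against 8.52%, and the TATA box in 4 (9.52%) against 10.7%. The NRF1 site stood in 3 (7.14%) against 3.39%, and the cyclic AMP element in 2 (4.76%) against 1.65%. Among the 13 windows of higher genes, 6 held CCAAT, 6 held the GC box and 1 each held the ETS site, the cyclic AMP element and the TATA box. The median count of CpG pairs per window was 17.5 for the 42 windows, 19 for the 13 and 11 for all windows. These are matches of letters and not measured binding sites.

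RBM14, a paraspeckle protein and coactivator, read 9.05, 8.84 and 9.42 log2 units in the control arrays and 9.76, 9.85 and 9.83 in the knockdown arrays. It was 0.71 ± 0.25 (SE) higher, or 1.64-fold (limma adjusted p of 0.273), and its other row was 0.69 ± 0.26 (SE) higher, also without overlap. RBM24, a splicing regulator of muscle, read 6.39, 5.17 and 5.88 with control siRNA and 5.99, 7.26 and 7.15 with SLU7 siRNA. Its groups overlapped at SLU7 replicate 1, and the difference was 0.99 ± 0.43 (SE), with a limma adjusted p of 0.382. RBM38, a p53-induced stabiliser of messengers, RBM47, a cofactor of RNA editing, and RBM11 were dim. RBM11 read 5.40 in control replicate 1 and 2.64 to 3.19 in the other 5 arrays, and its groups differed by -0.97. RBM45 differed by -0.30 (95% interval -1.33 to 0.73).

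The hnRNP G family differed little. RBMX, which binds nascent RNA and is needed for exon inclusion and chromatid cohesion, read 8.93, 9.02 and 9.11 with control siRNA and 9.15, 8.92 and 8.73 with SLU7 siRNA, a difference of -0.09 (95% interval -0.64 to 0.47) that was 0.01 without SLU7 replicate 3. RBMXL2, its retrogene of the testis, differed by -0.26, and RBMXL3, which was dim, by 0.18. RefSeq names 5 pseudogenes after RBMX, so its value may hold signal of copies. The same limit holds for RBMX2 (5 named), RBM17 (4) and, with 1 each, RBM7, RBM11, RBM39, RBM43, RBM48, RBMS1 and RBMS2. Pseudogenes were found only by a symbol made of the gene's symbol and P, with or without a number. Members not named here, RBM8A among them, may therefore have copies under other names.

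**Figure D4:**
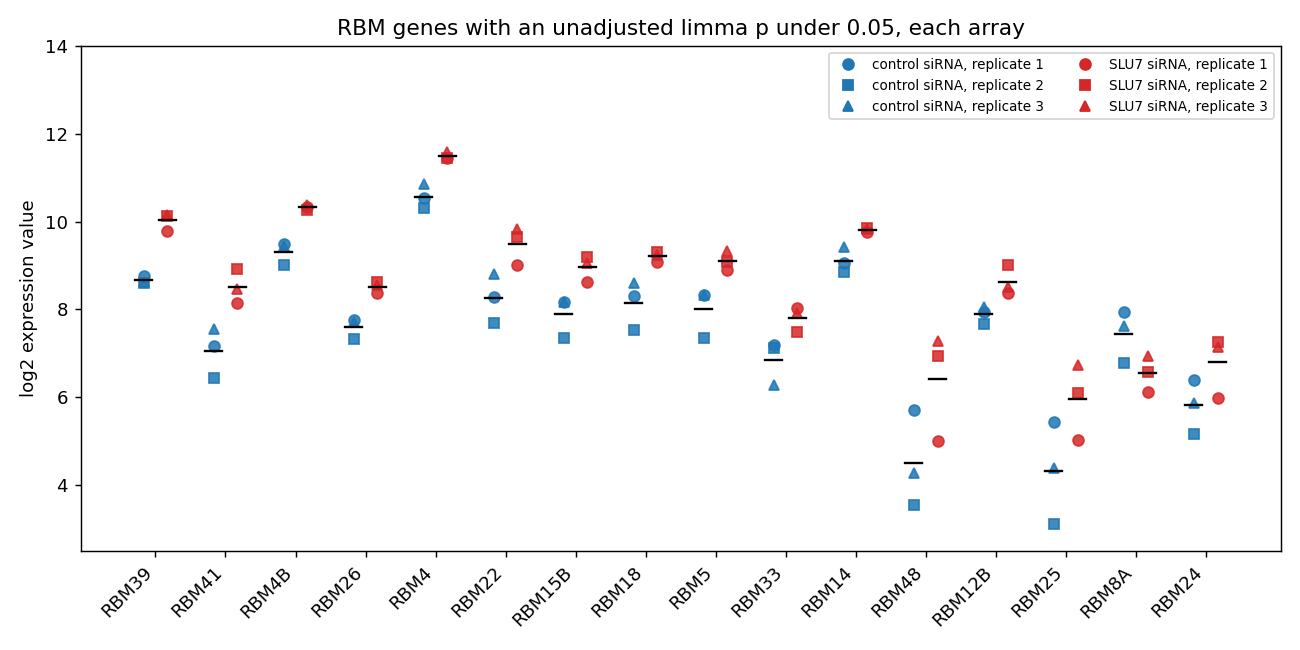
Log2 expression value in each array (y axis) for the 16 RBM genes with an unadjusted limma p under 0.05, ordered from the smallest p on the left; circles, squares and triangles are replicates 1, 2 and 3, and black lines are group means. In 12 of the 15 higher genes all knockdown arrays lie above all control arrays, and in RBM48, RBM25, RBM24 and RBM8A the groups overlap.

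RBM15 and RBM15B bring the m6A methyltransferase to its targets. RBM15B read 8.17, 7.34 and 8.16 log2 units with control siRNA and 8.63, 9.20 and 9.06 with SLU7 siRNA. All knockdown arrays were above all control arrays, and the difference of 1.07 ± 0.32 (SE), or 2.10-fold (95% interval 1.27 to 3.47), had a limma adjusted p of 0.182. RBM15 read 9.40, 8.85 and 9.24 with control siRNA and 9.43, 9.52 and 9.76 with SLU7 siRNA. Its groups lay apart by a narrow margin, with a difference of 0.41 (95% interval -0.19 to 1.00) that was 0.25 without control replicate 2. Of the other writer subunits, METTL3, the catalytic subunit, differed by -0.19, VIRMA by -0.10 and ZC3H13 by -0.24, while WTAP and CBLL1 had positive differences of 1.07 and 0.89 with standard errors of 0.79 and 0.81. None of these 5 had an unadjusted p under 0.05 in limma.

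RBM26 and RBM7 serve the nuclear exosome, RBM26 in the pathway for polyadenylated RNA and RBM7 in the NEXT complex. RBM26 read 7.76, 7.33 and 7.71 log2 units in the control arrays and 8.37, 8.62 and 8.56 in the knockdown arrays. The groups were clearly apart, and RBM26 was 0.92 ± 0.25 (SE) higher, or 1.89-fold (95% interval 1.28 to 2.81), with a limma adjusted p of 0.152. RBM7 read 7.85, 6.37 and 8.24 with control siRNA and 6.39, 8.13 and 7.42 with SLU7 siRNA. Its lowest values were in control replicate 2 and SLU7 replicate 1, the arrays that stand apart, and its groups differed by -0.18 (95% interval -1.48 to 1.12), a difference that turned positive without control replicate 1, control replicate 3 or SLU7 replicate 1. Of 8 measured exosome adaptors and cap-binding partners 5 were above 0, with a median of 0.15. NCBP2, the cap-binding subunit, was 0.62 ± 0.25 (SE) higher without overlap, and the helicase MTREX differed by -0.04.

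Nucleolar members act in ribosome assembly. RBM19 was higher in each knockdown array, by 0.58 (95% interval -0.02 to 1.18). RBM28 differed by -0.01 (95% interval -0.69 to 0.67). RBM34 differed by 0.15 in its brighter row and by 0.59 in the other, with overlap in both.

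RBM3, a cold-inducible protein that supports translation, was the only member with lower values in all knockdown arrays. It read 12.09, 12.03 and 12.34 log2 units with control siRNA and 11.48, 11.88 and 11.87 with SLU7 siRNA. The groups lay close together, with a difference of -0.41 (95% interval -0.99 to 0.16) and a limma adjusted p of 0.571. CIRBP, the other cold-inducible RNA-binding protein, read 11.47, 11.19 and 11.16 with control siRNA and 9.30, 10.18 and 10.18 with SLU7 siRNA. It was lower in each knockdown array, by 1.39 ± 0.31 (SE) log2 units, with a limma adjusted p of 0.0921. RBM33 read 7.18, 7.12 and 6.28 with control siRNA and 8.03, 7.49 and 7.93 with SLU7 siRNA. This RNA-binding protein was 0.96 ± 0.32 (SE) higher, or 1.94-fold, without overlap (limma adjusted p of 0.242), and RBM43 differed by -0.04.

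RBM18 and RBM12B are little studied. RBM18 read 8.32, 7.54 and 8.60 log2 units in the control arrays and 9.08, 9.31 and 9.24 in the knockdown arrays, a difference of 1.06 ± 0.32 (SE), or 2.08-fold, with a limma adjusted p of 0.188. RBM12B read 7.94, 7.68 and 8.06 in the control arrays and 8.37, 9.002 and 8.51 in the knockdown arrays, a difference of 0.73 ± 0.27 (SE), or 1.66-fold, with a limma adjusted p of 0.295. Both genes were higher in every knockdown array. RBM12B-AS1 was dim and its groups overlapped.

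The RBMS genes, whose proteins bind single-stranded nucleic acid, did not have positive differences. RBMS1 differed by -0.39 (95% interval -1.07 to 0.29) in the brighter of its rows, which the array names C2orf12, and by -0.10 in the row under its own name. RBMS2 differed by -0.07, and RBMS3, which was dim, by -0.07. The germ cell members RBM44 and RBM46 were dim, with differences of 0.37 and 0.10.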

How the data were processed

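Total RNA of 6 PLC/PRF/5 samples (3 per group) was hybridised to exon arrays. The deposited log2 values, 1 per transcript cluster, were made by the authors with RMA, per the submitters' processing notes, on the core chip definition of aroma.affymetrix, per the labels. The log2 scale was read from the values. The sources used here do not name a genome build, an annotation release or scan dates.

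Symbols came from GEO's platform annotation: 16287 of 18708 rows had 1 symbol, 674 several and 1747 none. Older symbols were updated through RefSeq (GRCh38.p14), for 2179 rows; promoter sequences are also RefSeq's. Groups were compared with limma 3.58.1 (R 4.3.3; lmFit, eBayes, group as the only term, no filter) over all rows, with Benjamini-Hochberg adjustment at 0.05. The typical SE was 0.312. The test was checked on simulated data. Lists are described by counts and medians. Array values are printed for the 16 members with an unadjusted p under 0.05 and fixed paralog pairs; other printed members were chosen to show a role after their values were seen. The members and lists were chosen with earlier results of these data known. Replicate numbers did not pair the samples (correlations of deviations -0.38, -0.31 and 0.14). The number of arrays limits precision.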

Additional observations from a re-analysis of the deposited data

How the results depend on the processing

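In limma, the number of RBM genes called higher was 0 with all rows, 1 without the dimmer rows (RBM39), 4 with an intensity trend and robust shrinkage (RBM39, RBM41, RBM4 and RBM4B), 2 with array weights (RBM39 and RBM41) and 7 with the array split as a block (those of the trend setting without RBM4, plus RBM5, RBM15B, RBM22 and RBM26). That block was read off these arrays after seeing the data, as was leaving both arrays out. No RBM gene was called lower in any setting (1 at an unadjusted p under 0.05). SLU7 passed in the same 4 settings: -1.51 without dim rows, with the trend and with the block, and -1.61 with array weights. At an unadjusted limma p under 0.05, the number of RBM genes lower was 0 with the replicate block and 2 with the trend. Without single arrays it was 0 to 2. The number higher was 12 with the replicate block and 10 to 16 without single arrays. It was 10 without control replicate 2 and also without SLU7 replicate 2. The replicate numbers, which are not known to pair the samples, left no row of the table called as a block, against 81. Of the 6 samples, 0 correlated best with their own number. The RBM median was lowest without SLU7 replicate 3 (0.32) and highest without control replicate 1 (0.61). Of the 22 RBM genes followed singly, 20 kept their sign in all 15 settings, which is fixed for groups without overlap. RBM7 ran from -0.73 without control replicate 2 to 0.29 without SLU7 replicate 1, and was 0.0068 without control replicate 1 and 0.20 without control replicate 3. RBMX ran from -0.19 without SLU7 replicate 1 to 0.015 without SLU7 replicate 3. Quantile normalization, median centring and the mean of all rows of a gene left no RBM gene called. Rows called, against 81, were 100 with quantile normalization and 81 with median centring, and 88 genes were called with the mean of all rows.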

Other observations

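Relatives that carried RBM symbols in older annotation or share the cold response (RBFOX2, ESRP1, SCAF8, MAK16, TUT1 and CIRBP; 6 measured of 7 listed) had a median log2 difference of -0.03, with 3 above 0. None passed over all rows in limma, and CIRBP was the only member with an unadjusted p under 0.05. RBFOX2, a regulator of alternative exons, differed by -0.10, and ESRP1, the epithelial splicing regulator, which was dim, by -0.12. Over the same arrays the 8 hepatocyte markers all had negative differences, with a median of -0.69, while 50.5% of all rows lay above 0. Of the 8, 3 were lower at an unadjusted limma p under 0.05, where 6.54% of all rows were.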
